A study of Mus musculus with 4 samples.

Results

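Of 10941 genes with counts, 114 encode the membrane traffic machinery described here: Rab GTPases, SNARE proteins with their syntaxin-binding and Unc13 partners, the COPII and COPI coats, and the translocon of the endoplasmic reticulum (ER). They were taken by gene symbol (Rab followed by a number, Vamp, Stx, Snap, Sec, Cop, Unc13 and Stxbp) and sorted into 12 families. There were 43 Rab GTPases, 9 Rab effectors and regulators, 7 VAMPs, 13 syntaxins, 3 SNAPs, 3 Sec22 SNAREs, 6 syntaxin-binding proteins, 4 Unc13 proteins, 8 translocon and signal peptidase subunits, 9 COPII and 7 COPI genes, and 2 Sec14-like genes that carry lipids and are no coat proteins.

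RNA was sequenced from group 2 innate lymphoid cells (ILC2), tissue lymphocytes that secrete type 2 cytokines, sorted from mouse adipose tissue in 4 libraries. All mice carried the R5 allele (Il5RFP-cre, R5/+), which puts a red fluorescent protein and Cre under the Il5 gene, so that deletion is limited to cells that have turned Il5 on. The knockout also carries floxed Rptor (Rptor f/f) and so loses Raptor, the subunit that defines the kinase complex mTORC1. By library name 2 libraries are KO and 2 are WT, but the titles of the KO libraries read Rptor +/+ and those of the WT libraries Rptor f/f. The groups are therefore called KO-named and WT-named, a positive log2 fold change means a higher level in the KO-named libraries, and which genotype that is cannot be told from the labels. The labels number the libraries of each group 1 and 2, whereas the count columns are numbered 1 and 3, so the columns numbered 3 can be tied to a group but to no single sample. The age of the mice, and whether each library came from its own animal, are not stated, and the p-values below speak to the spread among these 4 libraries, which may be technical. The comparison asks which transcripts differ when mTORC1 is lost in adipose ILC2.

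A secreted protein enters the ER through the Sec61 channel, leaves it in vesicles coated by COPII, and is sorted in the Golgi, from which COPI vesicles carry material back. Rab GTPases mark each compartment and recruit tethers and motors. SNAREs on vesicle and target then zip together and fuse the membranes, with help from Sec1/Munc18 proteins of the Stxbp family and, in regulated exocytosis, Unc13 proteins. Lymphocytes release cytokines along this constitutive route, whereas mast cells also fuse preformed granules.

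The libraries held 15258779 and 18856226 counts in KO-named libraries 1 and 3, and 18151495 and 17868383 in WT-named libraries 1 and 3. Levels are given in CPM (counts scaled to the library total, corrected by TMM factors), in the library order 1 then 3, and a count of 0 allows up to 0.138 to 0.224 CPM, the level of 3 counts (counting error only). All 10 ILC2 markers looked for were present, summing to 14804 and 11888 CPM in the KO-named and 12329 and 14124 CPM in the WT-named libraries. Mast cell markers (9 of 10 analysed) summed to 10575 and 7993 CPM in the KO-named and 7820 and 6435 CPM in the WT-named libraries. None of the 9 was at 0 in any library. The stromal genes Gsn and Col1a2, the 2 of 8 stromal markers analysed here, summed to 824 CPM in KO-named library 1, 0.117 CPM in KO-named library 3, and 7.58 and 0.59 CPM in the WT-named libraries. The part of these cells in the values below was not tested, and fewer cells of a type cannot be told apart from less RNA per cell.

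No member passed. By edgeR's quasi-likelihood test 0 of the 105 members tested had an adjusted p under 0.05, and 0.0% of all 8753 genes tested did (smallest adjusted p 0.433 among the members and among all genes). At an unadjusted p under 0.05 there were 6 members (5.71%), against 9.81% of all genes tested. Of these 6, Rab33b, Sec24a and Sec22b were higher in the KO-named libraries (3.47% of all genes were higher at this p), and Copb1, Rab3ip and Rab11fip3 were lower (6.34% of all genes). Without KO-named library 1 there were 11 such members (10.3%, against 12.2% of all genes in that fit), and without KO-named library 3 there were 14 (13.1%, against 16%). Without WT-named library 1 there were 3 (2.88%, against 4.26%), and without WT-named library 3 there were 4 (3.74%, against 5.58%). The KO-named pair was above the WT-named pair without overlap in 20 members (19%, against 17.8% of all genes tested), and below it in 21 (20%, against 22.1%). Each of these shares was near, or for the unadjusted p below, that of all genes. The median log2 fold change was 0.24 over the members and 0.05 over all genes tested, and with library size alone as the scaling these were −0.07 and −0.28. Per-family medians below move with this choice. DESeq2 called 1 of 107 members with an adjusted p, Stx19 (9.85% of all genes with one), limma-voom 0 (2.3% of all genes), and the authors' deposited table has a q under 0.05 for 2 of 114 members, Rab11fip2 and Stx19 (4.17% of all genes in that table). That table's fold changes can differ from those given here. For the members named above it gives 0.46 for Rab33b, 1.15 for Sec24a and 2.38 for Sec22b. It gives −0.63 for Copb1, −0.58 for Rab3ip and −2.81 for Rab11fip3, so these 6 keep their sign. Some members have the opposite sign there, such as Rab1a (0.28, against −0.55 here) and Vamp2 (−1.11, against 1.27 here). The reason was not tested.

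Rab GTPases were the largest family, with 21 of 43 at 10 CPM or more in every library and 7 below it in every library. Of 41 tested, 0 passed edgeR's test and 1, Rab33b, had an unadjusted p under 0.05 (9.81% of all genes tested did). In 10 of the 41 the KO-named pair was above the WT-named pair without overlap, and in 11 below it (17.8% and 22.1% of all genes tested). The median log2 fold change of the family was 0.31. It changed sign with the scaling (−0.03 with library size alone) and with the libraries, from −0.34 without KO-named library 3 and −0.03 without KO-named library 1 to 0.82 without WT-named library 3.

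The Rab with the highest CPM was Rab27b (Entrez 80718, chromosome 18, 69979131 to 70141633, mm10), which docks secretory granules and lysosome-related organelles at the plasma membrane and is known from mast cell degranulation. It stood at 1337 and 894 CPM in the KO-named and 603 and 1010.2 CPM in the WT-named pair, and the groups overlapped (log2 fold change 0.47, SE 0.41, edgeR adjusted p = 0.842). Its close relative Rab27a, which serves the same step in cytotoxic T cells, was near 10 CPM, with 10.8 and 8.27 CPM in the KO-named and 8.13 and 7.24 CPM in the WT-named libraries. Per kilobase of annotated exon (RPKM, the CPM divided by exon length), Rab27b made up 98.1% and 97.9% of the pair in the KO-named and 96.9% and 98.3% in the WT-named libraries. Of the other Rabs of secretory granules, Rab3d did not exceed 1.29 CPM in any library. Rab37 split each group, with 2.32 and 57.9 CPM in the KO-named and 6.02 and 54.0 CPM in the WT-named libraries. Rab44, a large Rab with a calcium-binding domain, had 83.8 and 21.8 CPM in the KO-named and 63.7 and 59.6 CPM in the WT-named libraries. The mast cell markers were abundant in every library, as given above, and their part in these values was not tested.

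Rab33b (Entrez 19338, chromosome 3, 51483966 to 51496228), a Golgi Rab that also binds the autophagy protein Atg16l1, had the smallest unadjusted p of the family. Its level was 643 and 684 CPM in the KO-named libraries, against 266 and 349 CPM in the WT-named libraries. The libraries of each group lay close together and the groups did not overlap (log2 fold change 1.11, SE 0.41, unadjusted p = 0.0222, edgeR adjusted p = 0.433). Per kilobase Rab33b had 184 and 196 RPKM in the KO-named and 76.3 and 99.98 RPKM in the WT-named libraries, and Rab27b 178 and 119 RPKM in the KO-named and 80.1 and 134 RPKM in the WT-named libraries, so the leading pair was not ordered beyond its spread.

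The Rabs of constitutive transport differed in direction among themselves. Rab10, which moves vesicles from the Golgi and recycling endosomes to the cell surface, had 264 and 312 CPM in the KO-named and 121 and 142 CPM in the WT-named libraries (log2 fold change 1.13, SE 0.52, edgeR adjusted p = 0.522). Rab11a of recycling endosomes had 185 and 241 CPM in the KO-named and 95.9 and 165 CPM in the WT-named pair, and the groups were just apart (0.71, SE 0.60). Rab8b, a Rab of surface delivery, overlapped at 522 and 331 CPM in the KO-named and 471 and 390.2 CPM in the WT-named libraries. In the other direction lay Rab14, which links the Golgi and endosomes, with 71.4 and 124 CPM in the KO-named and 209 and 214 CPM in the WT-named libraries (−1.11, SE 0.63, edgeR adjusted p = 0.643). Rab1a, which acts between ER and Golgi, had 98.1 and 133 CPM in the KO-named and 154 and 185 CPM in the WT-named pair, and its paralog Rab1b had no read and 2.29 CPM in the KO-named and 9.6 and 6.97 CPM in the WT-named libraries. Rab2a, also of the ER to Golgi route, was higher in KO-named library 1 at 145 CPM than in KO-named library 3 at 75.5 CPM, next to 66.96 and 70.9 CPM in the WT-named libraries.

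Along the endocytic route, Rab5a, which defines early endosomes, had 213 and 239 CPM in the KO-named and 123 and 145 CPM in the WT-named libraries (log2 fold change 0.76, SE 0.55, edgeR adjusted p = 0.763). Its paralog Rab5c went the opposite way, at 0.448 and 3.11 CPM in the KO-named and 18.9 and 13.6 CPM in the WT-named libraries (−3.18, SE 2.16, edgeR adjusted p = 0.733). Within the Rab5a and Rab5c pair Rab5a therefore took 99.7% and 98.5% of RPKM in the KO-named and 84.4% and 89.9% in the WT-named libraries. Rab7, the Rab of late endosomes and lysosomes, had 131 and 116 CPM in the KO-named and 192 and 211 CPM in the WT-named libraries (−0.71, SE 0.59, edgeR adjusted p = 0.821). Rab4a of fast recycling overlapped, with 81.2 and 194 CPM in the KO-named and 36.1 and 106 CPM in the WT-named libraries. Groups of 2 libraries cannot reach an exact permutation p below 0.333 for any such value. Exons of Rab5a, Rab6a and Rab24 overlap exons of another gene on the other strand (Pp2d1, Mrpl48 and Prelid1). Those of Rab33b, Rab10 and Rab7, among others, overlap Gm38160, Rab10os and Gm5577 on the other strand, which are not among the genes with counts. RefSeq lists pseudogenes of Rab5a, Rab7, Rab11b and Rab9b and, outside the Rabs, of Vamp7 and Stxbp3. Exons of Rab27a overlap the pseudogene Gm27186 on the same strand over 149 bases. Reads may be shared with these genes and pseudogenes, since strand and the treatment of multiply mapped reads are not given.

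**Figure D1:**
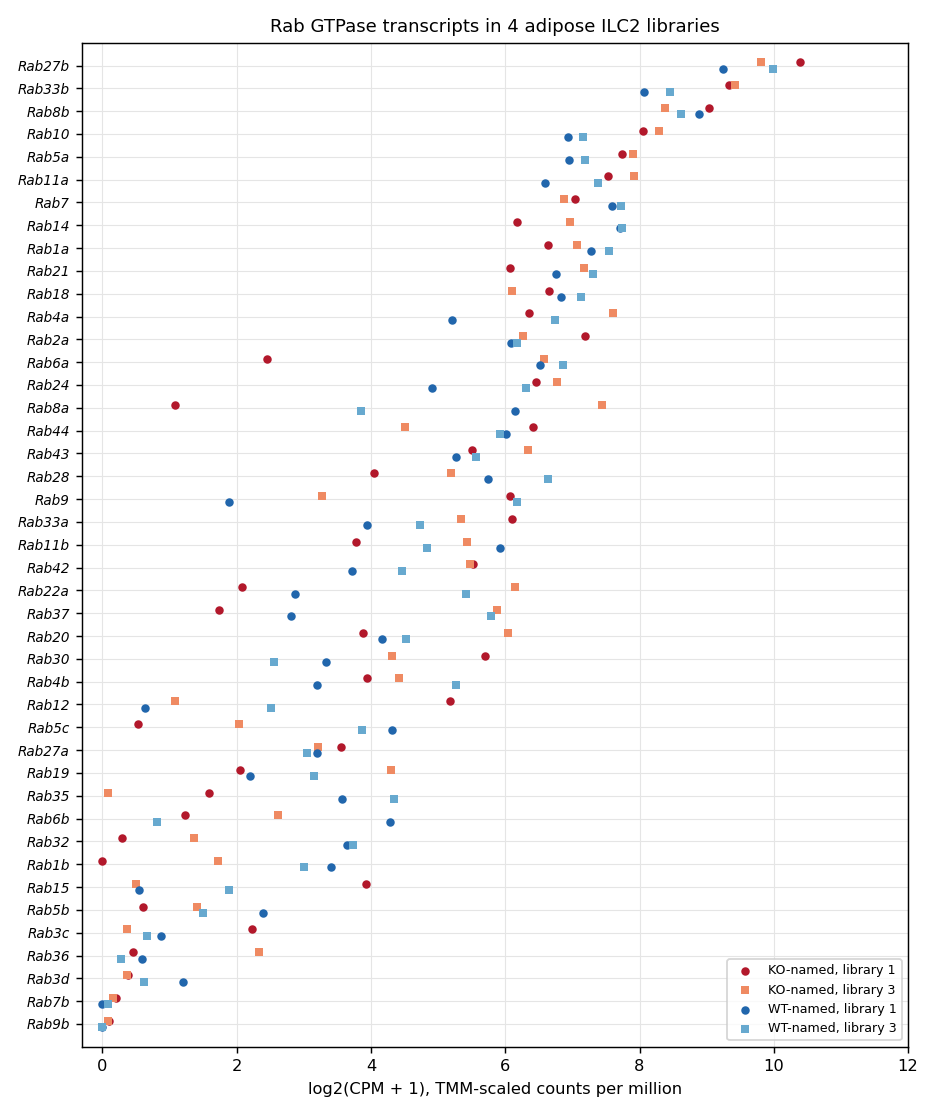
Levels of the 43 Rab GTPases in each library, as log2(CPM + 1), with genes ordered by mean level from the top and each point 1 library. Rab27b and Rab33b lead, the 4 libraries lie close together for most genes at the top, and Rab6a and Rab8a drop to 4.48 and 1.12 CPM in KO-named library 1.

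Among the Rab effectors and regulators the median log2 fold change was −1.21 over 9 tested, and it was 0.16 without WT-named library 1 and −2.64 without KO-named library 1. None passed edgeR's test, 2 had an unadjusted p under 0.05, both lower in the KO-named libraries (6.34% of all genes tested were), and 5 lay below the WT-named libraries without overlap (22.1% of all genes). With 9 genes, nothing particular to the family is read from these counts. Rab11fip2, which couples Rab11 to the motor myosin Vb, had 2.76 and 2.05 CPM in the KO-named and 20.3 and 20.4 CPM in the WT-named libraries. Its libraries agreed closely within each group, yet its edgeR adjusted p was 0.726 (log2 fold change −3.07, SE 2.03), while the authors' deposited table gives −4.51 with a q of 0.00902. Rab3ip, an exchange factor for Rab8, and Rab11fip3, a Rab11 effector of dividing cells, were both scarce. Rab3ip had 0.224 and 0.0587 CPM in the KO-named and 2.53 and 0.537 CPM in the WT-named libraries (unadjusted p = 0.0398, edgeR adjusted p = 0.477), and Rab11fip3 had 0.149 and 0.176 CPM in the KO-named and 0.827 and 1.45 CPM in the WT-named libraries (unadjusted p = 0.0423, edgeR adjusted p = 0.489). Rab3gap1, the catalytic part of the complex that turns off Rab3 and activates Rab18, lay the other way, at 44.1 and 78.0 CPM in the KO-named and 13.7 and 7.78 CPM in the WT-named libraries (2.51, SE 1.42, edgeR adjusted p = 0.642). Rab5if, the most abundant of the family per kilobase, had 0.448 and 31.9 CPM in the KO-named and 53.8 and 51.6 CPM in the WT-named libraries, so that KO-named library 1 alone was near 0. Exons of Rab5if overlap those of Sla2 on the other strand over 532 bases.

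On the vesicle side the groups overlapped in each of the 7 VAMPs. Their median log2 fold change was 0.07, and it rested on single libraries, being −3.60 without KO-named library 1 and 0.73 without KO-named library 3. Vamp8, the VAMP of late endosomes and of secretory granules in mast cells, had 155 and 32.4 CPM in the KO-named and 104 and 43.0 CPM in the WT-named libraries, so that library 1 was the higher in both groups (log2 fold change 0.35, SE 0.99, edgeR adjusted p = 0.964). Vamp7, a lysosomal VAMP, had 192 and 11.4 CPM in the KO-named and 39.1 and 84.8 CPM in the WT-named libraries. Vamp4 of the trans-Golgi, the most abundant VAMP per kilobase among those with an annotated length, had 264 and 64.1 CPM in the KO-named and 106 and 207 CPM in the WT-named libraries. Vamp2 and Vamp3, the VAMPs of regulated secretion and of recycling endosomes, did not exceed 11.6 and 21.3 CPM, and Vamp8 made up 94.3% and 99.7% of the RPKM of Vamp8 and Vamp2 in the KO-named and 96.6% and 99.3% in the WT-named libraries.

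On the target side, of 10 syntaxins tested 0 passed edgeR's test and 0 had an unadjusted p under 0.05, limma-voom called 0, and the median log2 fold change was 0.45. That median had no stable sign, since it was −0.29 without KO-named library 1, −0.52 without KO-named library 3, and −0.77 both with the replicate block and with limma-voom. Stx11, a syntaxin of cytotoxic granule release in lymphocytes, was the 1 tested syntaxin without overlap, at 37.2 and 20.2 CPM in the KO-named and 70.3 and 54.8 CPM in the WT-named libraries (−1.12, SE 1.19, edgeR adjusted p = 0.876). Stx7 of late endosomes had 269 and 1.17 CPM in the KO-named and 32.5 and 52.0 CPM in the WT-named libraries, so its fold change of 1.68 became −5.16 without KO-named library 1. Of the plasma membrane syntaxins, Stx3 had 1.2 and 22.5 CPM in the KO-named and 22.1 and 0.376 CPM in the WT-named libraries. Stx4a had 11.4 and 15.3 CPM in the KO-named and 37.3 and 14.2 CPM in the WT-named pair, and both overlapped. Stx5a, the syntaxin of the early Golgi, was present throughout, with 98.1 and 41.7 CPM in the KO-named and 45.2 and 33.3 CPM in the WT-named libraries. Stx19 was left out by the filter on low counts. Nearly all its reads came from 1 library, with 0 and 1 counts in the KO-named libraries and 752 and 5 in the WT-named libraries, and its DESeq2 adjusted p of 0.00196 therefore rests on WT-named library 1. Snap23, the plasma membrane partner of these syntaxins outside neurons, had 32.2 and 168 CPM in the KO-named and 52.0 and 122 CPM in the WT-named libraries, with library 3 the higher in both groups. Snap47 had 4.63 and 0.0587 CPM in the KO-named and 20.8 and 0.537 CPM in the WT-named libraries.

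Sec22b (Entrez 20333, chromosome 3, 97901227 to 97922318), a SNARE of traffic between ER and Golgi, was the only SNARE among the members with an unadjusted p under 0.05. Among the partner genes given further below, the SNAREs Gosr1 and Ykt6 were also under it. Sec22b had 213 and 82.8 CPM in the KO-named libraries, against 32.6 and 0.858 CPM in the WT-named libraries. The groups did not overlap, but the libraries of each were several-fold apart (log2 fold change 3.14, SE 1.41, unadjusted p = 0.0488, edgeR adjusted p = 0.508). Its relatives Sec22a and Sec22c overlapped. Sec22a had 39.5 and 0.997 CPM in the KO-named and 8.5 and 16.7 CPM in the WT-named pair, and Sec22c had 0.149 and 13.7 CPM in the KO-named and 0.184 and 22.1 CPM in the WT-named libraries.

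The syntaxin-binding proteins gave 1.03 as the median log2 fold change of their 6 members, and −0.25 without KO-named library 1. Of the 6, 0 passed edgeR's test, 0 had an unadjusted p under 0.05 and DESeq2 and limma-voom called 0. Stxbp2 (Munc18-2), needed with Stx11 for cytotoxic granule release and for mast cell degranulation, had 139 and 81.7 CPM in the KO-named and 29.8 and 38.7 CPM in the WT-named libraries (1.69, SE 0.93, edgeR adjusted p = 0.633). Stxbp6 (amisyn), which binds SNAREs at the plasma membrane, had 130 and 197 CPM in the KO-named and 22.8 and 83.5 CPM in the WT-named libraries (1.62, SE 0.85, edgeR adjusted p = 0.613). For both the groups did not overlap. Stxbp3 of constitutive fusion overlapped, with 110.0 and 45.3 CPM in the KO-named and 47.0 and 61.7 CPM in the WT-named pair. Of the Unc13 proteins, Unc13d (Munc13-4), the priming factor of blood cell granules, was scarce at 8.66 and 5.28 CPM in the KO-named and 13.1 and 2.63 CPM in the WT-named libraries. Unc13a, Unc13b and Unc13c, known from synapses, stayed below 1 CPM in every library.

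**Figure D2:**
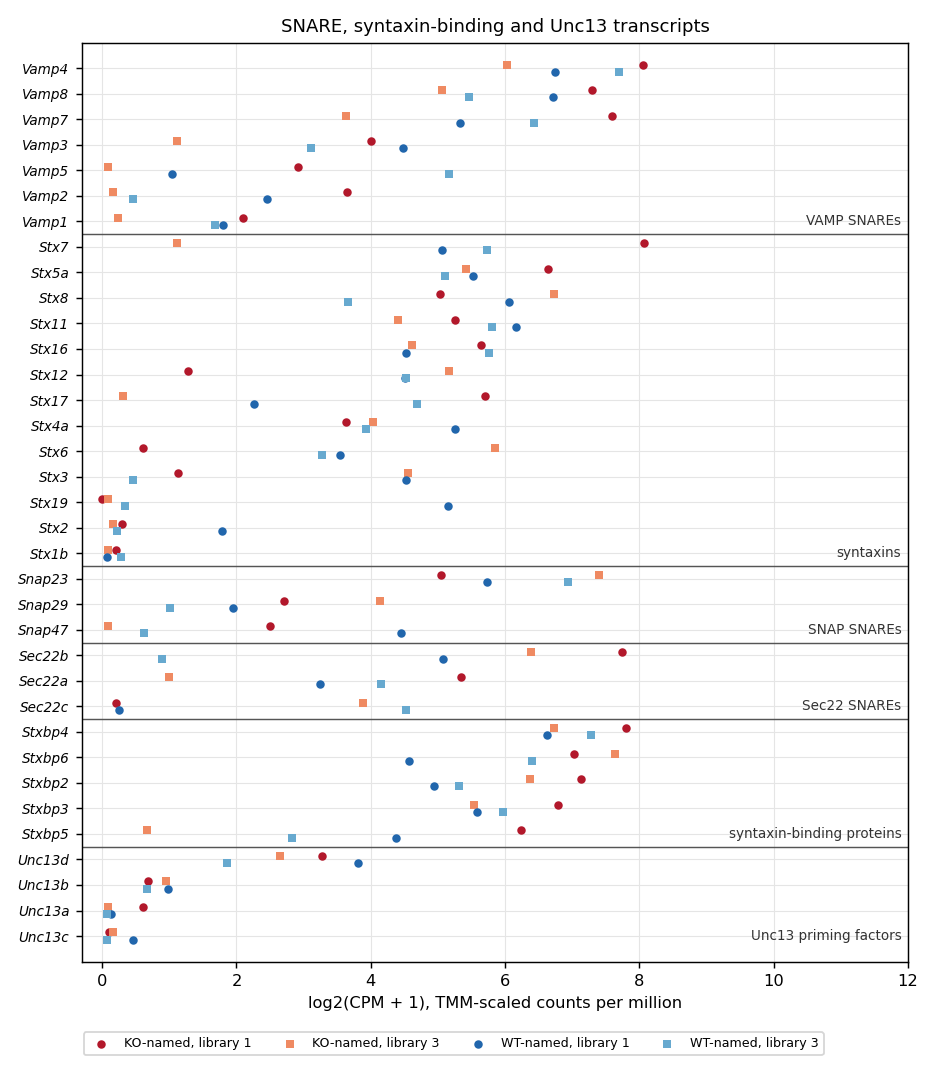
Levels of the SNARE, syntaxin-binding and Unc13 genes in each library, as log2(CPM + 1), grouped by family and ordered by mean level, with 1 gene left out. Libraries of a group are often far apart, as for Stx7 at 269 and 1.17 CPM in the KO-named libraries, whereas Stxbp2 and Stxbp6 show both KO-named points to the right of both WT-named points.

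The 8 translocon and signal peptidase genes summed to 1122 and 1446 RPKM in the KO-named and 889.8 and 976 RPKM in the WT-named libraries. The 43 Rab GTPases together summed to 1299.5 and 1414 RPKM in the KO-named and 884 and 1243 RPKM in the WT-named libraries. All 8 fold changes were above 0 (51.4% of all genes tested were), but 5 of 8 were without KO-named library 1 (43.8% of all genes), where Sec63, Sec61a2 and Sec61a1 turned below 0, and 5 of 8 with library size alone (41.7%). Of the 8, 0 passed edgeR's test, 0 had an unadjusted p under 0.05 and DESeq2 and limma-voom called 0, and their median of 0.44 was 0.11 with library size alone, against −0.28 for all genes on that scale. Sec11c, a catalytic subunit of the signal peptidase, had 514 and 633 CPM in the KO-named and 412 and 424.5 CPM in the WT-named libraries (log2 fold change 0.46, SE 0.40, edgeR adjusted p = 0.847). Of the channel's small subunits, Sec61b had 126 and 150.1 CPM in the KO-named and 110.2 and 96.2 CPM in the WT-named pair, and Sec61g 167 and 397 CPM in the KO-named and 151 and 211 CPM in the WT-named libraries. Sec62, which serves transport after translation and ER-phagy, was level at 305 and 388 CPM in the KO-named and 306 and 251 CPM in the WT-named libraries. The pore subunit Sec61a1 was lower, at 53.6 and 25.8 CPM in the KO-named and 45.3 and 15.6 CPM in the WT-named libraries. Its paralog Sec61a2 had 173 and 0.235 CPM in the KO-named and 0.643 and 30.6 CPM in the WT-named libraries, so that Sec61a1 made up 19.9% and 98.9% of the pair's RPKM in the KO-named and 98.3% and 28.8% in the WT-named libraries. Exons of Sec61a2 overlap those of Nudt5.

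COPII genes showed opposite directions within the Sec24 family, the adaptors that pick cargo for the coat. Sec24a (Entrez 77371, chromosome 11, 51692263 to 51757161) had 154 and 235 CPM in the KO-named libraries, against 61.8 and 45.9 CPM in the WT-named libraries (log2 fold change 1.85, SE 0.71, unadjusted p = 0.0254, edgeR adjusted p = 0.439). Sec24d (Entrez 69608, chromosome 3, 123264801 to 123365641) had 19.8 and 16.4 CPM in the KO-named and 61.3 and 73.8 CPM in the WT-named libraries (−1.90, SE 1.25, edgeR adjusted p = 0.721). Neither gene's groups overlapped, the libraries of each group lay within 2-fold of each other, and neither passed the test. Sec24b, by contrast, was among the steadiest members at 79.6 and 104 CPM in the KO-named and 70.7 and 74.8 CPM in the WT-named pair, and Sec24c had 30.996 and 21.6 CPM in the KO-named and 22.9 and 35.6 CPM in the WT-named libraries. The ratio of Sec24a to Sec24d, which does not depend on how libraries are scaled, was 7.76 and 14.4 in the KO-named and 1.01 and 0.622 in the WT-named libraries, by counts. Of the summed RPKM of the 4 paralogs, Sec24a took 45.6% and 54.5% in the KO-named and 21.2% and 14.3% in the WT-named libraries, while Sec24d took 9.85% and 6.37% in the KO-named and 35.3% and 38.6% in the WT-named libraries. The authors' deposited table gives log2 fold changes of 1.15 for Sec24a and −0.43 for Sec24d, with DESeq2 q-values of 0.966 and 0.995. This pair was chosen after its values were seen, and 2 libraries a group allow no exact permutation p below 0.333.

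**Figure D3:**
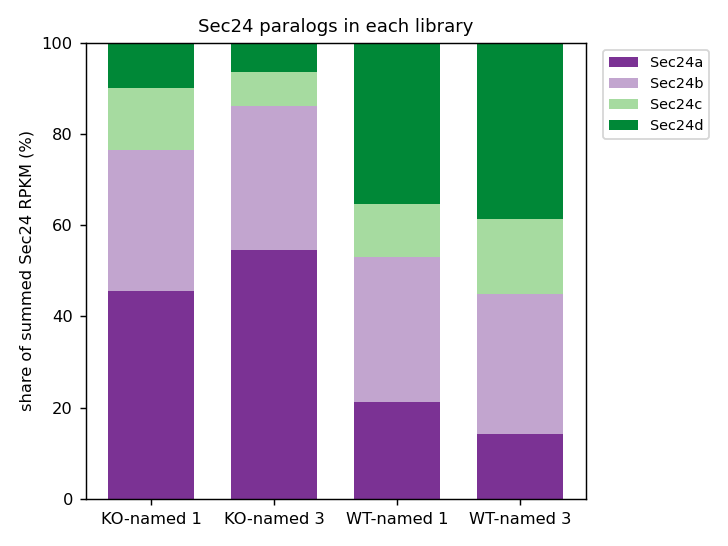
Share of the summed RPKM of the 4 Sec24 paralogs taken by each, per library, as stacked bars that add to 100%. The Sec24a part is 45.6% and 54.5% in the KO-named libraries and 21.2% and 14.3% in the WT-named libraries, and the Sec24d part is the smallest of the 4 in both KO-named and the largest in both WT-named libraries.

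The other COPII genes were uneven. Sec23a, the inner coat subunit that switches off the GTPase Sar1, had 0.448 and 3.4 CPM in the KO-named and 7.9 and 9.28 CPM in the WT-named libraries (log2 fold change −2.15, SE 1.98, edgeR adjusted p = 0.857). Of the outer coat, Sec13 had 40.3 and 5.05 CPM in the KO-named and 24.1 and 47.6 CPM in the WT-named pair, and Sec31a 37.5 and 11.3 CPM in the KO-named and 66.6 and 0.697 CPM in the WT-named libraries. Both overlapped, as did Sec16a, which organises ER exit sites, at 0.747 and 72.6 CPM in the KO-named and 15.6 and 16.3 CPM in the WT-named libraries. Sec23ip, which binds Sec23, was high in 1 library, at 147 and 10.3 CPM in the KO-named and 14.8 and 7.24 CPM in the WT-named libraries. KO-named library 1 is also the library with stromal transcripts, as given above, and their part in this value was not tested.

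In the COPI coat the subunits lay in both directions. Copb1 (Entrez 70349, chromosome 7, 114215559 to 114254680), the beta subunit, had 56.5 and 56.2 CPM in the KO-named libraries, against 150.3 and 216 CPM in the WT-named libraries (log2 fold change −1.70, SE 0.71, unadjusted p = 0.0363, edgeR adjusted p = 0.469). Copa, the alpha subunit, had 26.6 and 4.22 CPM in the KO-named and 70.2 and 106 CPM in the WT-named libraries (−2.51, SE 1.29, edgeR adjusted p = 0.602), and its exons overlap those of Ncstn on the other strand. Both subunits were thus lower in the KO-named libraries without overlap, and neither passed. Cope, the epsilon subunit, lay the other way, at 139 and 174 CPM in the KO-named and 85.5 and 6.76 CPM in the WT-named libraries (1.76, SE 1.06, edgeR adjusted p = 0.680). Copb2, the beta prime subunit, had 8.14 and 155 CPM in the KO-named and 49.9 and 1.23 CPM in the WT-named pair, and Copz1, the zeta subunit, had 1.12 and 57.1 CPM in the KO-named and 42.5 and 51.8 CPM in the WT-named libraries. The ratio of Copb1 to Cope, which does not depend on how libraries are scaled, was 0.407 and 0.323 by counts in the KO-named and 1.76 and 32.0 in the WT-named libraries. The median log2 fold change of the 7 was −0.27, with −1.63 without KO-named library 3, 0.09 without KO-named library 1 and 0.18 without WT-named library 1.

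**Figure D4:**
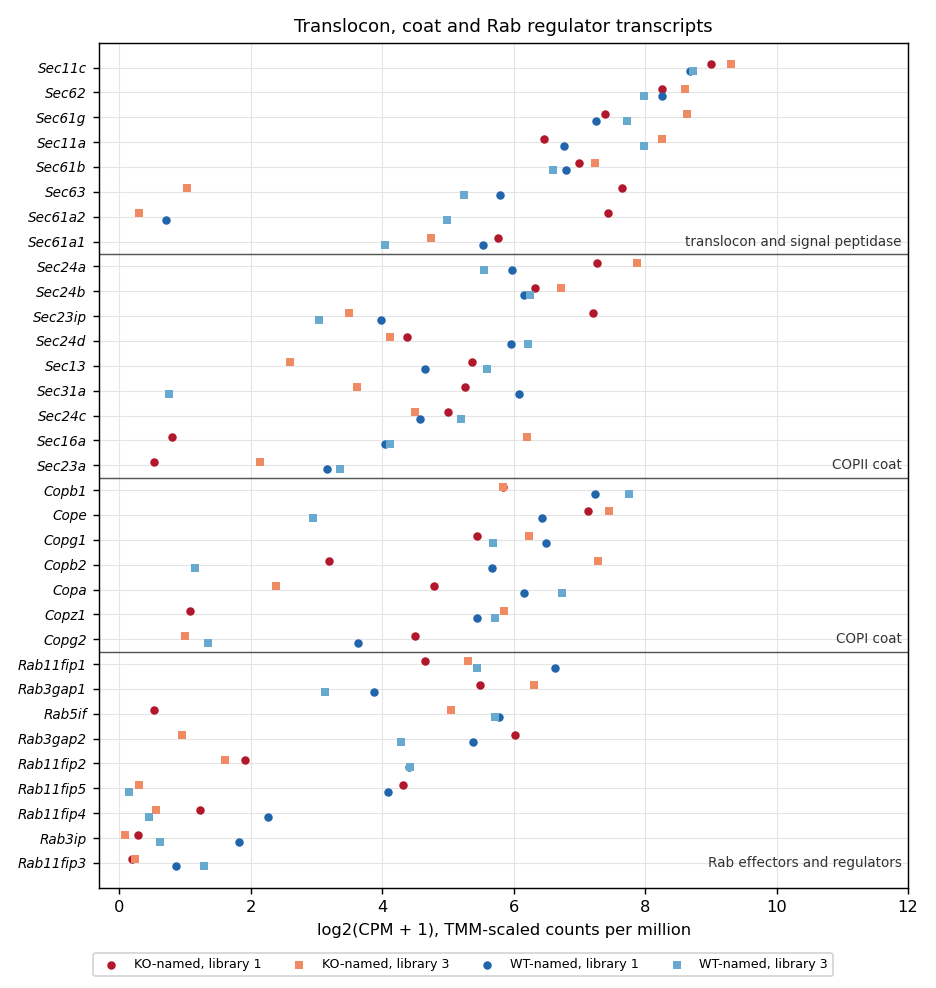
Levels of translocon, COPII, COPI and Rab regulator genes in each library, as log2(CPM + 1), grouped by family. Sec63 and Sec61a2 have KO-named points far apart, and Sec24a and Sec24d show the KO-named points on opposite sides of the WT-named points.

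The promoters of the coat genes were searched for TGACGTG, the core of the unfolded protein response element to which XBP1 and ATF6 bind. In windows from 250 bases before to 50 bases after the start (RefSeq, GRCm38.p6), on both strands, it was found in 4 of 25 promoters of COPII, COPI, Sec22 and translocon genes (16%) and 0 of 34 of Rab GTPases, against 1.99% of all 27025 promoters. Of all members with a promoter entry 6 of 94 held it (6.38%). The E-box CACGTG, which the lysosome regulator TFEB binds, was in 12 of 94 member promoters (12.8%) and 7.24% of all promoters, and CCAAT in 40 of 94 (42.6%) and 37.9%. TGACGTG and CACGTG share the letters ACGTG, but a match of one cannot lie over the other at those letters. These matches are a description of sequence and were chosen after values were seen. Of the 6 members with TGACGTG, Copb1, Sec23a, Sec24d and Rab5if lay below the WT-named libraries without overlap (22.1% of all genes tested did), and Copb2 and Stx5a overlapped. The 4 coat genes among them are printed beside Sec24a, in which none of the motifs searched was found. The windows of Sec24d and Sec24a lie inside the gene spans given above and not at their ends. The difference between these 2 genes therefore holds for these windows only. Capitals mark TGACGTG or its reverse complement, and in Sec24d also CCAAT in reverse complement. Each reads 5′ to 3′ on the gene's strand, at chr7:114254631-114254930, minus strand for Copb1, chr9:98563481-98563780, plus strand for Copb2, chr12:59011968-59012267, minus strand for Sec23a, chr3:123267246-123267545, plus strand for Sec24d and chr11:51756785-51757084, minus strand for Sec24a.
Copb1: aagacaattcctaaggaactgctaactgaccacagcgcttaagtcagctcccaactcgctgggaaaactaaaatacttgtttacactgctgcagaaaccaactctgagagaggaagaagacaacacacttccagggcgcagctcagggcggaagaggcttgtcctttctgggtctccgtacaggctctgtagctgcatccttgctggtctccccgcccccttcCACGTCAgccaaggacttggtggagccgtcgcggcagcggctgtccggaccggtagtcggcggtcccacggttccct
Copb2: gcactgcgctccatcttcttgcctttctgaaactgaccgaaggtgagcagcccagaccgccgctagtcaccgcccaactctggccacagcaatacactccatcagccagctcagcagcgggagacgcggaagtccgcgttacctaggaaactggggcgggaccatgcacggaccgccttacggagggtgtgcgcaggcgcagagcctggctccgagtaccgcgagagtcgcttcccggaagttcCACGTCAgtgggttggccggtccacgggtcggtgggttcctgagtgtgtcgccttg
Sec23a: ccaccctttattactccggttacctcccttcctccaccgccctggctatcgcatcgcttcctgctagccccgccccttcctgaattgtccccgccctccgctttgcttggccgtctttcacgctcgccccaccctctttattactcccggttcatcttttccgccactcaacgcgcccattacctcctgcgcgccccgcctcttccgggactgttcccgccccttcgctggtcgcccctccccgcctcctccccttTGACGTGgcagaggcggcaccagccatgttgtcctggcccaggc
Sec24d: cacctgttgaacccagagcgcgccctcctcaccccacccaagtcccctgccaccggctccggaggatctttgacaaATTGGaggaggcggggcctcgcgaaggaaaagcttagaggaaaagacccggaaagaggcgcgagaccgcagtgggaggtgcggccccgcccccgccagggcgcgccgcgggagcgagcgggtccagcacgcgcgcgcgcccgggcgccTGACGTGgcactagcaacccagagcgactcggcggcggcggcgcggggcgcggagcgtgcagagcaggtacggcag
Sec24a: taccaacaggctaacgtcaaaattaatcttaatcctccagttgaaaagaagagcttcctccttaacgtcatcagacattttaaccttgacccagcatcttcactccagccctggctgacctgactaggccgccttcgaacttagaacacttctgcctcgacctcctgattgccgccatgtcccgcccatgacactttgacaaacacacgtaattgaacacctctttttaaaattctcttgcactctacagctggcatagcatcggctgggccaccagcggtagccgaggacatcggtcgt

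Partner genes of the same route, listed by role but with earlier results of these data known, are given for comparison. Of 114 tested in 7 lists, 0 passed edgeR's test. At an unadjusted p under 0.05, 4 were higher and 7 lower (3.47% and 6.34% of all genes tested were). Limma-voom called 1 of the 114 (2.3% of all genes), and the median log2 fold change was 0.08. DESeq2 called 9 of the 118 genes of these lists with counts, which include genes left out by the filter (9.85% of all genes). Nsf, the ATPase that takes SNARE complexes apart, had 144 and 66.8 CPM in the KO-named and 7.58 and 0.376 CPM in the WT-named libraries (4.72, SE 1.58, edgeR adjusted p = 0.433, DESeq2 adjusted p = 0.0211). Gosr1 and Ykt6, SNAREs of the Golgi, lay the other way. Gosr1 had 0.598 and 1.35 CPM in the KO-named and 13.2 and 64.5 CPM in the WT-named pair, and Ykt6 0.224 and 0.0587 CPM in the KO-named and 23.5 and 32.4 CPM in the WT-named libraries (edgeR adjusted p = 0.460 and 0.433, DESeq2 adjusted p = 0.00359 and 6.62e-05). Among COPII partners, Sar1b, the GTPase that starts the coat, had 306 and 229.8 CPM in the KO-named and 144 and 54.7 CPM in the WT-named libraries (1.43, SE 0.64, edgeR adjusted p = 0.508). Trappc8, a subunit of a tether that activates Rab1, had 239.8 and 219 CPM in the KO-named and 37.7 and 78.2 CPM in the WT-named libraries (1.98, SE 0.69, edgeR adjusted p = 0.433). The list medians were 0.13 for SNARE partners, −0.01 for COPII partners, −0.14 for COPI partners, 0.13 for the Rab cycle, 0.10 for tethers, 0.35 for translocation partners and −0.28 for granule exocytosis.

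Many members differed widely between the libraries of 1 group. In the KO-named pair 35 of 105 members (33.3%) differed by more than 10-fold between the libraries, against 24.4% of all genes tested, and in the WT-named pair 15 (14.3%), against 13.8%. Counts under 3 were taken as 3 for these ratios. In the KO-named pair the lower library was library 1 in 15 members, such as Rab8a at 1.12 and 172 CPM and Stx6 at 0.523 and 56.4 CPM, and library 3 in 20, such as Sec63 at 200.5 and 1.06 CPM and Stx17 at 51.2 and 0.235 CPM. Such gaps occurred in the KO-named pair for 16 of 33 members with a mean of 10 to under 50 CPM (36.5% of all genes). They occurred there for 7 of 23 members with a mean of 50 to under 100 CPM (15% of all genes). For members with a mean of at least 100 CPM they occurred in 0 of 23 (2.19% of all genes). The WT-named pair had them, at these levels in the same order, in 4 of 33 (16.6% of all genes), 3 of 23 (3.14%) and 1 of 23 (0.346%). A group of 8 members with a mean of at least 50 CPM stayed within 2-fold over all 4 libraries, namely Sec24b, Sec11c, Sec62, Sec61b, Rab8b, Rab7, Rab1a and Rab5a. That is 17.4% of the 46 members at that level, against 23.2% of all genes tested at that level.

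**Figure D5:**
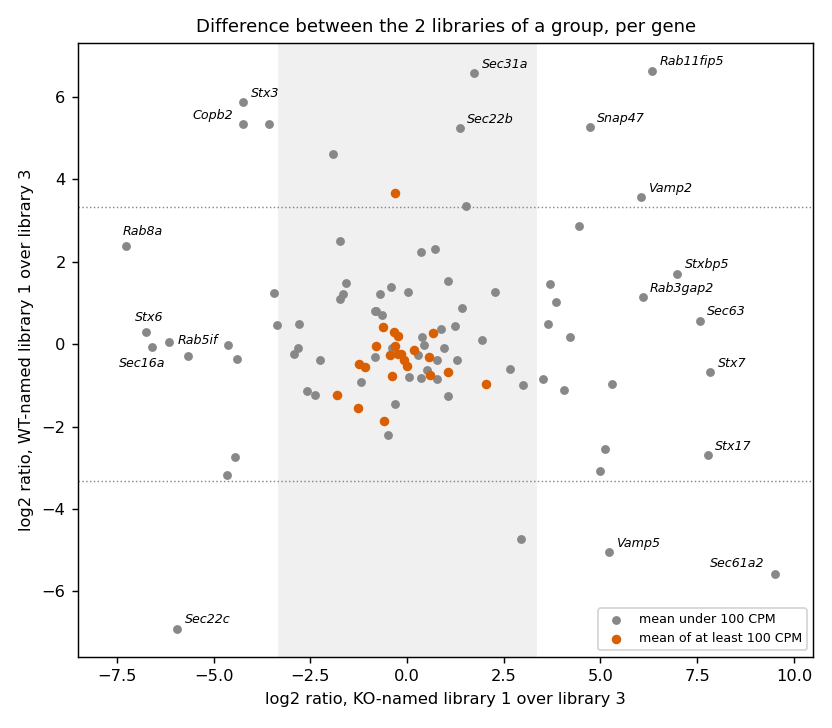
Log2 ratio of library 1 over library 3 in the KO-named pair (horizontal) and the WT-named pair (vertical) for the 105 members tested, 1 point a gene. The shaded band and dotted lines mark 10-fold, 35 members lie outside the band and 15 beyond the lines, and among the orange points (mean of at least 100 CPM) only Cope lies beyond either.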

How the data were processed

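RNA was measured by RNA-seq in 4 libraries of sorted mouse adipose ILC2, lysed in Trizol and prepared with a Smart kit per the labels' protocols. Reads were placed on mm10 according to the submitters' processing notes. For the aligner, counter, annotation and strandedness nothing is given in the sources used. The authors deposited an estimated count per gene and library (20.0% to 21.6% of values not whole), which was rounded for testing. They also deposited a log2 fold change, p-value and q-value from DESeq2, per the file headers. By the values that fold change runs KO over WT, although its name says the reverse. A further 12 per-sample columns were not used.

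All genes were fitted with the quasi-likelihood method of edgeR 4.0.16 (R 4.3.3), with TMM scaling and filterByExpr (8753 of 10941 kept), with Benjamini-Hochberg adjustment at 0.05, 2-sided. CPM is divided by the TMM-scaled total, and the SE is the fold change over the square root of F. RPKM is that CPM per kilobase of merged GENCODE M21 exons (113 of 114 members, Vamp7 having no entry by symbol). DESeq2 1.42.0, limma-voom (limma 3.58.1), other scalings, no filter, a block and leaving out each library were alternatives. The fits were also run on simulated counts with the same spread for every gene, which need not match the spread of these libraries. The columns numbered 1 were matched to a sample and those numbered 3 to a group. Of 114 members 9 were removed by the filter. Members and lists were chosen with earlier results of these data known. Values per library are given for a list of secretion genes, the 2 most abundant members of each family by RPKM, and members at an unadjusted p under 0.05 without overlap and with a mean of at least 10 CPM, of which there were 4. Others were chosen after their values were seen. Gene positions are from RefSeq GRCm38.p6, matched by Entrez number for all 114, and exon overlaps of at least 50 bases from GENCODE of the same assembly. The values of 1 syntaxin-binding gene, which is counted in its family, are not reported here.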

Additional observations from a re-analysis of the deposited data

How the results depend on the processing

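Over all genes edgeR's quasi-likelihood test called 0, and 25 with the column number as a replicate block. DESeq2 called 952 and limma-voom 201, and leaving out 1 library gave 0 to 7. Of the members 0 passed in each of the edgeR fits and in limma-voom, and 1 passed in DESeq2. The median log2 fold change of the members, 0.24, became −0.071 with library size alone, −0.11 with the replicate block, −0.077 with limma-voom, and −0.32 to 0.44 when 1 library was left out. Of 50 genes followed, which are not all the genes given above, 40 kept their sign in each setting they were fitted in. Genes that were not followed changed sign too, and those given next are examples. Sec61a1 fell below 0 with library size alone, without KO-named library 1 and without WT-named library 3. Vamp2, Vamp7 and Stxbp3 did so without KO-named library 1. Vamp7 also did with the replicate block and limma-voom. Vamp3 and Sec31a rose above 0 without WT-named library 1 and without KO-named library 3, and Sec31a also with the block and limma-voom. Sec24c rose above 0 without KO-named library 3 and without WT-named library 3. Copb2, Sec61g and Sec16a fell below 0 without KO-named library 3, and Sec16a also with the block and limma-voom. Without KO-named library 1 Sec23ip fell below 0 and Copz1 rose above it. Sec22c rose above 0 without WT-named library 3. The changes in the 10 followed genes were these. With library size alone Rab27a was at −0.033, Snap23 at −0.071, Vamp4 at −0.24 and Vamp8 at −0.036, and with no filter Vamp4 at −0.065. With the replicate block Sec22a was at −0.90, Snap23 at −0.11, Stx7 at −1.15, Unc13d at 0.20 and Vamp4 at −0.19. With limma-voom Sec22a was at −0.96, Stx7 at −1.59, Unc13b at 0.0012, Unc13d at 0.15, Vamp4 at −0.26 and Vamp8 at −0.077. Unc13b was at 0.075 with RLE size factors and at 0.0093 with DESeq2, which put Vamp4 at −0.0025. Leaving out 1 library gave −2.82 to 0.15 for Sec13, −3.64 to 1.63 for Sec22a, −1.46 to 1.06 for Snap23, −7.33 to 2.07 for Snap47, −5.16 to 2.65 for Stx7, −0.38 to 0.36 for Unc13b, −0.85 to 1.38 for Unc13d, −1.28 to 0.73 for Vamp4 and −1.17 to 1.09 for Vamp8. The cause was not tested. The column numbers 1 and 3 are shared by the groups but pair nothing in the labels, and the gap between the libraries of one group did not follow that of the other (correlation −0.0015 over 8753 genes). With 1 library left out, the lone library of its group is assumed to vary like the others.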

Other observations

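Of 27 tested genes of tethers, which catch vesicles before fusion, 4 lay above and 7 below the WT-named libraries without overlap (17.8% and 22.1% of all genes tested did), with a median log2 fold change of 0.10. Uso1, a Golgi tether, had 90.6 and 76.7 CPM in the KO-named and 20.2 and 30.2 CPM in the WT-named libraries. Exoc7 of the exocyst, which acts at the plasma membrane, had 0.149 and 0 CPM in the KO-named and 36.4 and 3.59 CPM in the WT-named libraries. Cog2 of the Golgi tether had 0.0747 and 0.0587 CPM in the KO-named and 7.63 and 9.07 CPM in the WT-named libraries (edgeR adjusted p = 0.433 for Exoc7 and Cog2). For Exoc7 and Cog2 DESeq2 gave adjusted p-values of 0.000466 and 0.000972. These genes were chosen after their values were seen.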
